A study of Mus musculus with 6 samples.

Results

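This account concerns 10 genes of epithelial innate defence in the fetal mouse lung, chosen by symbol and found by their Entrez identifiers among the 27179 genes of the deposited count table. They are the IL-17 receptor subunit genes Il17re, Il17ra and Il17rc, the cytokine gene Il33, the complement gene Hc, the chemokine gene Cxcl15, the lysozyme genes Lyz1 and Lyz2, the chitinase-like gene Chil1 and the lectin gene Reg3g. Messenger RNA was sequenced from EpCAM-positive cells (EpCAM is an epithelial surface protein) sorted from lungs at E16.5 of gestation, with 3 samples in each of 2 groups. Control samples (replicates 1, 3 and 7) had the genotype Shh-Cre;Grhl2f/+ and knockout samples, labelled Grhl2_cKO (replicates 1, 5 and 10), had Shh-Cre;Grhl2f/-. Both groups carried Shh-Cre, a recombinase under the control of the Sonic hedgehog gene, which acts in the lung epithelium, and both carried a floxed Grhl2 allele. Controls therefore kept 1 intact copy of Grhl2, the gene of an epithelial transcription factor, and were not free of Cre. Each group had 2 male samples and 1 female sample (control replicate 7 and Grhl2_cKO replicate 1), and the labels do not say whether a sample came from 1 embryo or from a pool, so each p-value is set by how far these particular samples vary, which may be technical.

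Epithelium of the airways and alveoli makes many of the molecules that meet microbes before leukocytes do. IL-17 receptors are pairs: IL-17RA joins IL-17RC to bind IL-17A and IL-17F, and joins IL-17RE to bind IL-17C, a ligand made by epithelium itself. IL-33 is an alarmin stored in the nucleus and released from damaged cells, C5 (encoded by Hc) is the complement protein from which the membrane attack complex starts, lysozymes cut bacterial cell walls, and REG3G binds Gram-positive bacteria.

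Totals were 13472216 to 17228762 counts per library, and Grhl2 itself stood at 146.0 to 149.2 CPM (the count of a gene divided by the TMM-scaled library size in megareads) in controls and at 105.3 to 115.3 CPM in Grhl2_cKO (log2 fold change -0.43 ± 0.06 SE, with an edgeR adjusted p of 0.0026). The reads sum over the whole gene, so exons outside the deleted part can still be counted. Counts by exon were not available, and how far Grhl2 was deleted in the sorted cells was not tested. Summed heart muscle markers (8 genes) did not overlap between the groups, at 161 to 189 CPM in controls and 215 to 415 CPM in Grhl2_cKO. Myh7 made up most of the sum in each library but Grhl2_cKO replicate 1 and was the 1 marker of this list called higher (138.5 to 146.6 CPM in controls and 191.6 to 200.6 CPM in Grhl2_cKO; edgeR adjusted p = 0.00122). The other 7 markers summed to 214.2 CPM in Grhl2_cKO replicate 1 and to 19.36 to 42.30 CPM in the remaining 5 libraries, a sum formed after the values were seen. The part of such RNA in the results below was not tested. Grhl2_cKO replicate 1 also had the highest sum of 9 mesenchymal markers, 1779 CPM where the others held 893.1 to 1476 CPM. For the 9 tested genes of the set and the called genes of the related lists below, calls that change without this replicate are stated. Apart from Sftpd, calls of cell type markers were not examined without it.

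Of the 10 genes, 9 had enough counts to be tested, and 4 of these changed: Il17re, Il33 and Lyz1 were lower and Hc was higher in Grhl2_cKO (edgeR, quasi-likelihood; called where p adjusted by Benjamini-Hochberg over all 14842 genes tested was under 0.05). Over all tested genes 3.62% were called, 2.39% lower and 1.23% higher. The set was picked with earlier results of these data known, so its share of called genes cannot be read against that background as evidence. In 6 of the 10 genes, untested Reg3g among them, each control value lay on the same side of each knockout value, as in 18.1% of all tested genes. In bulk RNA, fewer cells of a type and less RNA per cell cannot be told apart, which holds for each value below.

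**Figure D1:**
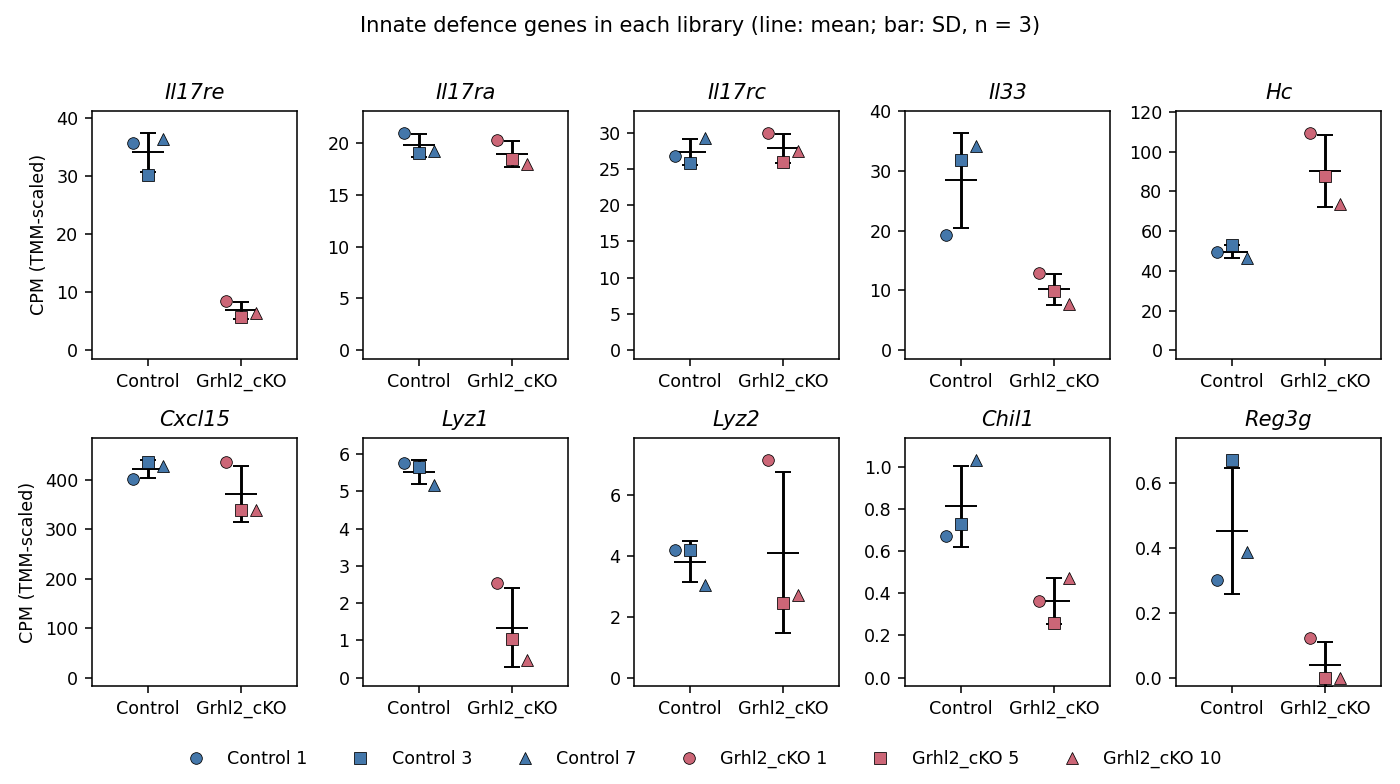
Level of each of the 10 genes in every library, in CPM on TMM-scaled library sizes; points are libraries, the horizontal line is the group mean and the bar the SD (n = 3). The groups are separate for Il17re, Il33, Hc, Lyz1, Chil1 and Reg3g, and Lyz2 shows 1 high knockout library, replicate 1, at 7.16 CPM.

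The 3 IL-17 receptor genes behaved differently from each other, and 2 of them are neighbours on chromosome 6. Il17re (Entrez 57890, mm10 positions 113458699 to 113470758) ends 696 bases before Il17rc begins (Entrez 171095, 113471455 to 113483163), with both genes on the forward strand. The 250 bases before the start of each gene in the RefSeq promoter table (GRCm38.p6, forward strand) are shown because 1 of these neighbours fell and the other was not called. The first window is chr6:113458521-113458770 and the second is chr6:113471205-113471454, both in lower case with no part marked. Gene starts differ among annotations of Il17re, and the window uses the one of that table. The Il17re span given above begins at 113458699, inside the window. In GENCODE M21 the gene begins at 113458484, before the window, which then lies within the gene.
Il17re: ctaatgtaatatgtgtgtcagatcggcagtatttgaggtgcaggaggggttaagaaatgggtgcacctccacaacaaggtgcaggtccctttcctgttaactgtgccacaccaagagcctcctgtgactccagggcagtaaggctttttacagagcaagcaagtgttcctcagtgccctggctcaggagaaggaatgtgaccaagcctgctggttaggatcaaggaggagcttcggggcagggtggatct
Il17rc: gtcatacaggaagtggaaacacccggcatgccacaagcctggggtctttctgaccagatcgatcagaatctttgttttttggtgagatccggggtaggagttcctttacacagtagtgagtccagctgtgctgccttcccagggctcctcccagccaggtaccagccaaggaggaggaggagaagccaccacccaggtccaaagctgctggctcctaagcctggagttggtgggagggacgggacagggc

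Grainyhead factors are known to bind the palindrome AACCGGTT and variants of it. Neither AACCGGTT nor AACCNGTT, searched on both strands (the second includes the first), was found in the 10 windows of 300 bases, from 250 before to 50 after the start, that the table holds for 9 of the 10 genes. Among all 32851 windows of that length, 0.146% held the first and 2.088% the second. No match says only that these letters are not in these windows. For Hc, on the reverse strand, the 250 bases before the start used there are chr2:35061413-35061662. The gene span given below for Hc reaches 35068506, and the bases before that outer end were not searched.

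Il17re had the largest fall of the 9 tested genes. Control libraries (replicates 1, 3 and 7, the order kept throughout) held 35.6, 30.2 and 36.4 CPM. Knockout libraries (replicates 1, 5 and 10, likewise) held 8.42, 5.72 and 6.39 CPM. Each control library was more than 3 times as high as the highest knockout library. On the log2 scale the difference was -2.31 ± 0.14 (SE, 3 libraries a group), with an edgeR adjusted p of 2.9e-05, and 20.1% of the control mean remained. The call held in 16 of 16 alternative settings, with log2 fold changes from -2.49 to -2.20.

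Il17ra (Entrez 16172, chromosome 6, 120463181 to 120483731), the subunit that IL-17RE needs as a partner, was measured at nearly the same level in both groups. It held 21.0, 19.1 and 19.2 CPM in controls and 20.3, 18.4 and 17.9 CPM in Grhl2_cKO, so the groups overlapped (log2 fold change -0.06 ± 0.09 SE; edgeR adjusted p = 0.91). Il17rc, the partner for IL-17A and IL-17F, held 26.8, 25.8 and 29.3 CPM against 30.0, 26.0 and 27.5 CPM, a log2 difference of 0.03 ± 0.09 (SE) with an edgeR adjusted p of 0.973. Its sign turned in 2 of 16 alternatives, among them the fit without Grhl2_cKO replicate 1, at -0.03 ± 0.10 (SE).

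Ratios within each library compared the receptor genes directly. The ratio of Il17re to Il17ra, both in CPM, was 1.72 ± 0.16 in controls and 0.36 ± 0.05 in Grhl2_cKO (SD, n = 3 each; two-sided exact permutation p = 0.1), and that of Il17re to Il17rc was 1.25 ± 0.08 and 0.244 ± 0.032 (two-sided exact permutation p = 0.1). The control ratio was 4.79 and 5.11 times the knockout ratio. Groups did not overlap in either ratio, and 0.1 is the smallest p that 3 samples against 3 can give, also after Benjamini-Hochberg adjustment over the 3 ratios computed. Per kilobase of gene length, the Il17re level in controls (10.1 to 12.2 CPM per kb) overlapped that of Il17rc (10.9 to 12.4), while in Grhl2_cKO Il17re stood at 1.91 to 2.81 and Il17rc at 10.98 to 12.66 CPM per kb.

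None of the 27 other tested genes within 1 Mb of Il17re was called, with log2 fold changes from -0.49 to 0.74. Genes whose log2 CPM followed Il17re most closely over the 6 libraries, the genotype difference included, were Tmem54, Epn3 and Atp8b1 (each with Pearson r = 0.998, among 12368 genes whose mean count reached 50). Such r values describe 6 points in 2 groups and carry no test.

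The rest of the IL-17 system was measured from a list of 18 ligands, receptors and signalling genes. Of its 13 tested members none was called in either direction, and the median log2 fold change was -0.12, against -0.004 over all tested genes. Il17c, the ligand of IL-17RE, was near the limit of detection, at 0.12 to 0.37 CPM over the 6 libraries, where 3 counts are 0.178 to 0.224 CPM. Il17a had 0 counts in each library. Il17rd, a receptor-like gene of the family, had the smallest p of the list, with 9.34, 9.38 and 9.29 CPM in controls and 11.54, 12.59 and 11.19 CPM in Grhl2_cKO (edgeR adjusted p = 0.17). Traf3ip2, the adaptor that IL-17 receptors recruit, stood at 31.2, 31.7 and 33.7 CPM against 29.8, 28.8 and 26.3 CPM (edgeR adjusted p = 0.338). Nfkbiz, a gene that IL-17 induces in many epithelia, ranged from 46.7 to 117.8 CPM, with its highest value in control replicate 1.

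**Figure D2:**
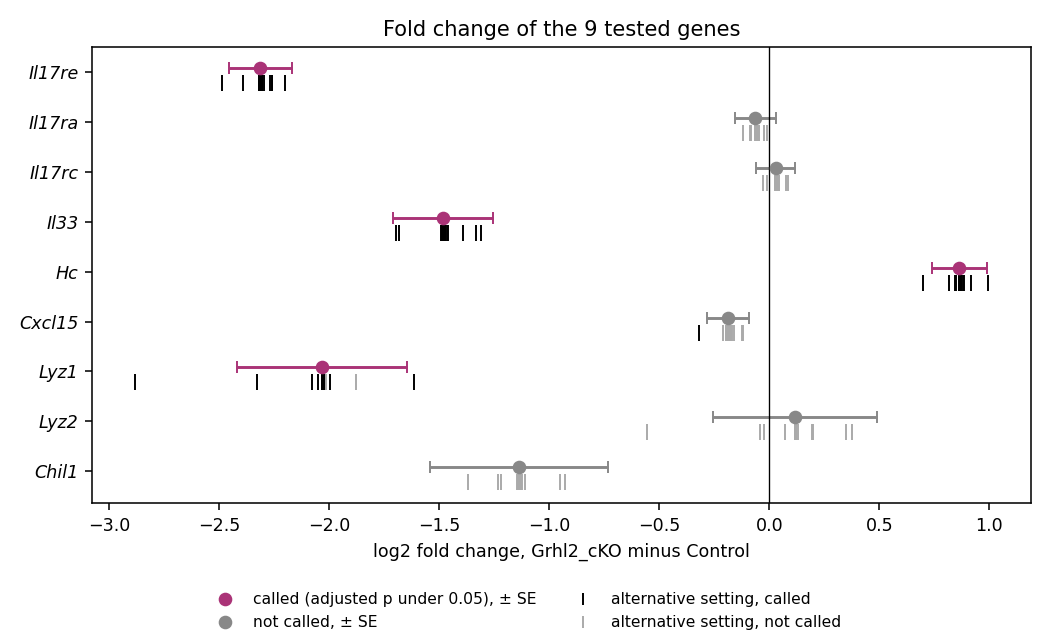
Log2 fold change (Grhl2_cKO minus Control) of the 9 tested genes; circles with bars are the main test ± SE, ticks below them are the alternative settings, dark where called (the sum of Lyz1 and Lyz2 is not drawn). Il17re, Il33 and Hc were called in each of 16 alternatives, and Lyz1 and Cxcl15 changed sides of the threshold in some.

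Il33 (Entrez 77125, chromosome 19, 29925113 to 29960718) fell, with more spread among the controls than Il17re. Controls held 19.4, 31.9 and 34.1 CPM, and Grhl2_cKO libraries held 13.0, 9.89 and 7.76 CPM. Control replicate 1 was the lowest control and still lay above each knockout library. Its log2 fold change of -1.48 ± 0.23 (SE, 3 libraries a group) had an edgeR adjusted p of 0.00611, and 35.8% of the control mean remained. Over 16 alternatives the log2 fold change was -1.70 to -1.31, and each passed the threshold; the lowest was that without Grhl2_cKO replicate 1. None of the 16 tested neighbours within 1 Mb was called, and the closest patterns over the 6 libraries were those of Kcnk6, Vangl1 and Zfp704 (Pearson r = 0.994, 0.990 and 0.988).

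The receptor for IL-33, encoded by Il1rl1, is carried by immune cells and was at 0.12 CPM or less in each library, below the level of 3 counts. Its co-receptor gene Il1rap stood at 35.0 to 41.7 CPM over the 6 libraries (edgeR adjusted p = 0.921). In the list of the IL-33 receptor and related alarmins, none of 8 tested members was called (13 listed), with a median log2 fold change of -0.10. Hmgb1, a nuclear protein that is also released from damaged cells, had the smallest p, with 113.6, 104.3 and 107.8 CPM against 108.0, 125.5 and 129.1 CPM (edgeR adjusted p = 0.43). Tslp, an epithelial cytokine that acts with IL-33 in type 2 immunity, stood at 0.84 to 1.32 CPM with no difference detected at this depth (edgeR adjusted p = 1).

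Hc was the 1 gene of the 10 that rose. The gene (Entrez 15139, chromosome 2, 34983329 to 35068506) encodes complement C5. It held 49.3, 53.0 and 46.4 CPM in controls and 109.6, 87.5 and 73.5 CPM in Grhl2_cKO. The knockout libraries were spread more widely, with replicate 1 highest, and the lowest of them was above each control. Its log2 fold change of 0.86 ± 0.13 (SE, 3 libraries a group) had an edgeR adjusted p of 0.00453, a 1.82-fold rise, and it was 0.70 without Grhl2_cKO replicate 1 (edgeR adjusted p = 0.00487). Over 16 alternatives it ranged from 0.70 to 1.00 and was called in each. An antisense gene, Gm13449, overlaps Hc in GENCODE M21. The sources used here do not give the strand setting, and without it reads of the pair cannot be told apart. None of 20 tested neighbours within 1 Mb was called, with log2 fold changes from -2.38 to 0.53. Prdm6, Ptpa and AW551984 had the closest patterns (Pearson r = 0.998, 0.991 and 0.988).

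A second complement gene was also higher in Grhl2_cKO, with the knockout libraries in the reverse order to Hc. Cfi, which encodes factor I, the protease that inactivates C3b and C4b (chromosome 3, 129836727 to 129875332), stood at 86.4, 104.0 and 94.2 CPM in controls and 138.8, 165.4 and 172.6 CPM in Grhl2_cKO, a log2 difference of 0.74 ± 0.09 (SE, 3 libraries a group) with an edgeR adjusted p of 0.00198. The groups did not overlap, and the call held in 16 of 16 alternatives. It was the 1 called member among 16 tested of 27 listed complement components and regulators, Hc not counted. The median log2 fold change of the list was 0.09, and 1.23% of all tested genes were called higher. C3, the central component, was low at 1.13 to 2.69 CPM, with no call (edgeR adjusted p = 0.557). Several later components of the attack complex were at or below 3 counts: C8a, C8b and C9 had 0 counts in all 6 libraries, and C6 and C7 held 0.19 CPM or less. The membrane inhibitor genes Cd55, at 36.8 to 47.6 CPM, and Cd59a, at 4.48 to 6.81 CPM, did not pass (edgeR adjusted p = 0.538 and 0.751).

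Cxcl15, also called lungkine, encodes a neutrophil-attracting chemokine of lung epithelium (Entrez 20309, chromosome 5, 90794534 to 90803067). It was the most abundant of the 10 per kilobase of gene length, at 189.1 to 205.1 CPM per kb in controls, and no other gene of the set exceeded 13.12 CPM per kb in any control. CPM were 402.2, 436.2 and 428.4 in controls and 435.7, 338.4 and 339.5 in Grhl2_cKO. Grhl2_cKO replicates 5 and 10 were lower than each control and replicate 1 was among the controls. The log2 fold change of -0.19 ± 0.10 (SE) did not pass (edgeR adjusted p = 0.487). Without Grhl2_cKO replicate 1 it was -0.32 ± 0.07 and passed (edgeR adjusted p = 0.0417), while the adjusted p over its 16 alternatives ran from 0.0417 to 0.798. No member of the list of other chemokines was called (9 tested of 14), and the median log2 fold change was -0.10. Cx3cl1, the membrane-bound chemokine fractalkine, had the smallest p, with 25.18, 18.02 and 19.81 CPM against 17.9, 13.2 and 17.3 CPM (edgeR adjusted p = 0.288).

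The lysozyme genes Lyz1 (Entrez 17110, chromosome 10, 117287795 to 117292868) and Lyz2 (Entrez 17105, 117277541 to 117282272) are paralogs on the reverse strand, 5522 bases apart. In mouse, Lyz1 is known as the lysozyme of intestinal Paneth cells and Lyz2 as that of macrophages and alveolar type 2 cells. Their coding sequences, taken from GENCODE M21 transcripts, are both 447 bases long and identical at 425 positions (95.1%). The first 150 coding bases, 5′ to 3′, show how near the paralogs are, with the 14 bases that differ in capitals.
Lyz1: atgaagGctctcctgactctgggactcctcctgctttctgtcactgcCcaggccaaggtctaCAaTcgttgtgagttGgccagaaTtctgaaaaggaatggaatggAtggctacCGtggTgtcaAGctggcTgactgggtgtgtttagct
Lyz2: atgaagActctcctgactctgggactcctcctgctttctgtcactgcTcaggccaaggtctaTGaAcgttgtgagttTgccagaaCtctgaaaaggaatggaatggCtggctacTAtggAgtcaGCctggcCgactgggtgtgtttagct

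Of all 50-base windows of the Lyz1 transcript, 16.1% occur unchanged in Lyz2, and of 100-base windows 2.1%. The sources used here do not give how reads matching both genes were counted, and the counts of both are therefore uncertain. Over the 250 bases before the start, a gapped alignment of the promoters was 79.4% identical, and the likeness was highest near the start. The 130 bases before the start (RefSeq, GRCm38.p6, reverse strand) are identical at 120 positions (92.3%), and the last 50 have no difference. They are printed because the response of the pair differed, with the 10 differing bases in capitals, at chr10:117292869-117292998 for Lyz1 and chr10:117282273-117282402 for Lyz2. In GENCODE M21 Lyz2 starts at position 117282321, inside this window, so the bases nearest the RefSeq start lie within that gene.
Lyz1: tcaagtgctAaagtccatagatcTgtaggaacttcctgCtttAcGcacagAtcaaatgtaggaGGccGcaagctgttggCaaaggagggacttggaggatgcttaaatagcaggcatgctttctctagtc
Lyz2: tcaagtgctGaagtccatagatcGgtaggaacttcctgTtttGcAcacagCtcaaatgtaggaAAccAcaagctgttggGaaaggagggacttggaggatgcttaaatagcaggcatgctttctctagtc

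Lyz1 was low and fell further. It held 5.75, 5.66 and 5.16 CPM in controls (77, 93 and 80 counts) and 2.53, 1.03 and 0.47 CPM in Grhl2_cKO (42, 16 and 8 counts). Each control lay above each knockout library, and replicate 1 was the highest of these. Its log2 fold change of -2.03 ± 0.39 (SE, 3 libraries a group) had an edgeR adjusted p of 0.0187, and 24.4% of the control mean remained. It was -2.88 without Grhl2_cKO replicate 1, and the call was lost without control replicate 3 (edgeR adjusted p = 0.0676) and without Grhl2_cKO replicate 5 (0.0773). The closest patterns over the 6 libraries were those of Fgf1, Cttnbp2 and Prrg3 (Pearson r = 0.997, 0.996 and 0.995).

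Lyz2 did not pass. It held 4.18, 4.20 and 3.03 CPM in controls and 7.16, 2.44 and 2.72 CPM in Grhl2_cKO, so that replicate 1 was above each control and replicates 5 and 10 below each. The log2 fold change was 0.12 ± 0.37 (SE; edgeR adjusted p = 0.975), an error wide enough to include changes of either sign, and it was -0.55 ± 0.23 without Grhl2_cKO replicate 1 (edgeR adjusted p = 0.342). The share of Lyz1 in the summed counts of both genes was 59.4% ± 3.09 in controls and 23.5% ± 7.74 in Grhl2_cKO (SD, n = 3 each), with no overlap (two-sided exact permutation p = 0.1, the smallest possible here).

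Adding the 2 genes up gives a value that does not depend on how counted reads were split between them. Reads matching both genes, if left uncounted, would be missing from the sum as well. The sum was 9.94, 9.86 and 8.20 CPM in controls and 9.68, 3.47 and 3.20 CPM in Grhl2_cKO, a log2 difference of -0.77 ± 0.35 (SE) that was not called (edgeR adjusted p = 0.387). Without Grhl2_cKO replicate 1 the sum was called lower, at -1.48 ± 0.18 (SE; edgeR adjusted p = 0.00247), the 1 of its 16 alternatives in which it was.

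**Figure D3:**
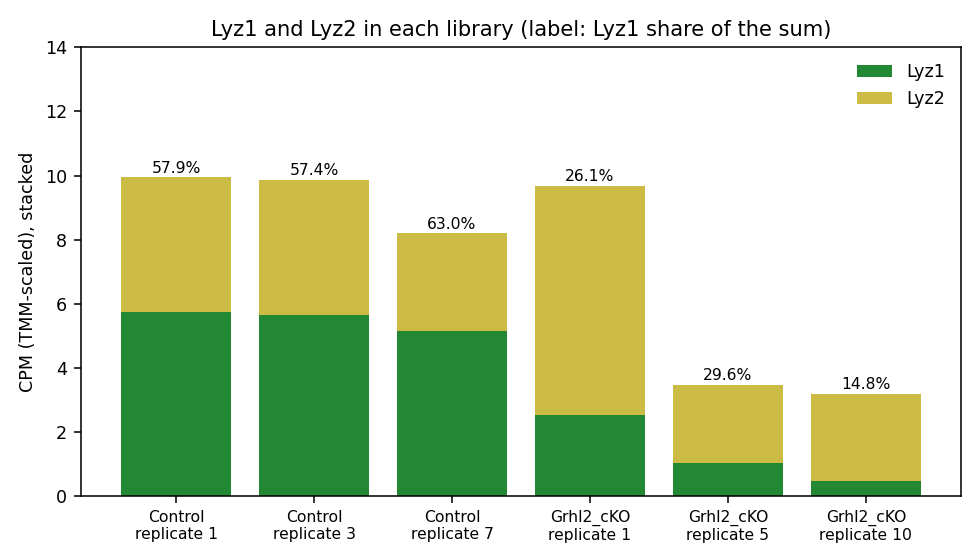
Lyz1 and Lyz2 in each library, stacked, in CPM on TMM-scaled library sizes; the label above each bar is the share of Lyz1 in the sum, from counts. The share is 57.4% to 63.0% in the 3 control libraries and 14.8% to 29.6% in the 3 knockout libraries, while the sum in Grhl2_cKO replicate 1 is level with the controls.

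Lysozymes are also made by macrophages and neutrophils. Of 12 macrophage markers 8 had a mean under 1 CPM, Adgre1 and C1qb among them, none of the 12 was at 0 in every library, and their summed level was 21.6 to 28.3 CPM in controls and 16.7 to 23.6 CPM in Grhl2_cKO. Mertk made up most of the control sums (13.1 to 15.4 CPM, against 9.24 to 12.5 CPM in Grhl2_cKO; not called). The other 11 markers, summed after the values were seen, held 8.52, 13.3 and 7.36 CPM in controls and 13.8, 9.63 and 7.46 CPM in Grhl2_cKO, highest in replicate 1, which was also highest for Lyz2. Of 10 leukocyte markers 8 had a mean under 1 CPM, with sums of 2.97 to 5.30 CPM and 4.05 to 7.76 CPM, highest in Grhl2_cKO replicate 1. Each of 10 neutrophil markers had a mean under 1 CPM, with sums of 0.79 to 1.42 and 1.30 to 2.12 CPM. No tested marker of these lists was called, and their part in the Lyz2 level of replicate 1 was not tested.

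Chil1 and Reg3g were near the limit of detection. Chil1, which encodes a chitin-binding protein without enzyme activity (Entrez 12654, chromosome 1, 134182156 to 134190031), held 0.67, 0.73 and 1.03 CPM in controls (9, 12 and 16 counts) and 0.36, 0.26 and 0.47 CPM in Grhl2_cKO (6, 4 and 8 counts). The groups did not overlap, yet the log2 fold change of -1.14 ± 0.40 (SE) did not pass (edgeR adjusted p = 0.21), nor did it in its 15 alternatives. In the list of other chitinases and chitinase-like genes, none of 4 tested members was called (7 listed), and Chil3 and Chil4 were at 0 in each library. Ctbs, which encodes the lysosomal enzyme di-N-acetylchitobiase, had the smallest p of that list, with 11.96, 11.99 and 13.10 CPM against 13.0, 13.4 and 13.1 CPM (edgeR adjusted p = 0.842).

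Reg3g (Entrez 19695, chromosome 6, 78466269 to 78468874) had too few counts to be tested. It had 4, 11 and 6 counts in controls and 2, 0 and 0 counts in Grhl2_cKO. Summed over libraries, 21 counts against 2 give 8.77% of the control level, with an exact binomial 95% interval of 0.997% to 35.9% that covers counting error only. With no filter on low counts its fitted log2 fold change was -3.27, a value that depends on the prior count, and it did not pass (edgeR adjusted p = 0.0956). A count of 0 in a library allows up to 3 counts, or 0.193 and 0.178 CPM in Grhl2_cKO replicates 5 and 10. Its close relatives Reg3a and Reg3b had 0 counts in each library.

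In Grhl2_cKO replicate 1, 9 of the 10 genes had their highest knockout value, all but Chil1, whereas 32.0% of all tested genes had theirs there. This held for genes that fell, rose or did not pass alike. The genes share their libraries, so this is a description of 1 sample.

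Among other secreted defence proteins, 2 of 7 tested members fell (24 listed) and none rose, with a median log2 fold change of -0.21. Of all tested genes, 2.39% were called lower and 1.23% higher, and the list was chosen with earlier results of these data known. Sftpd, which encodes the bacteria-binding surfactant protein D, stood at 6.05, 8.71 and 6.32 CPM in controls and 4.57, 2.50 and 2.55 CPM in Grhl2_cKO (45.6% of control; edgeR adjusted p = 0.0365). Pglyrp1, which encodes a peptidoglycan-binding protein, stood at 2.99, 3.29 and 2.71 CPM against 1.56, 1.41 and 1.48 CPM (49.7% of control; edgeR adjusted p = 0.0247). Both had separate groups and weak calls: Sftpd had a log2 fold change of -1.13 with all libraries and -1.48 without Grhl2_cKO replicate 1, and it lost its call without control replicates 3 and 7 and Grhl2_cKO replicates 5 and 10 (edgeR adjusted p 0.0604 to 0.156), and Pglyrp1 with DESeq2 (0.0733) and without each of the 6 libraries in turn (edgeR adjusted p 0.0535 to 0.122). Surfactant protein A, from Sftpa1, was far more abundant, at 449 to 527 CPM in controls and 346 to 434 CPM in Grhl2_cKO (edgeR adjusted p = 0.112). The 6 members Reg3a, Reg3b, Bpifa1, Defb1, Duox2 and Duoxa1, had 0 counts in each library.

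Sensors of microbes held 1 called gene. Tlr3, the endosomal receptor for double-stranded RNA, fell from 10.2, 12.7 and 10.7 CPM to 8.12, 7.64 and 6.63 CPM (66.5% of control; edgeR adjusted p = 0.0447), a call lost in 8 of 16 alternatives (adjusted p 0.0342 to 0.193 over all), among them those without control replicates 3 and 7 and without any 1 of the 3 knockout libraries. It was the 1 lower call among 13 tested of 20 listed pattern recognition receptors, whose median log2 fold change was -0.15. Of the 13, 12 were below 0, beside 7638 of 14842 over all tested genes and 49 of 70 over the 7 related lists. Cd14, the co-receptor for bacterial lipopolysaccharide, held 7.772, 7.550 and 6.002 CPM in controls and 5.712, 3.982 and 5.388 CPM in Grhl2_cKO (not called, with an edgeR adjusted p of 0.219). Over the 7 related lists together, 3 of 70 tested genes were lower (4.29%) and 1 was higher (1.43%), beside 2.39% and 1.23% of all tested genes. The lower count was 0 in the fits without control replicate 3, Grhl2_cKO replicate 5 or Grhl2_cKO replicate 10, and 1 without control replicate 7.

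**Figure D4:**
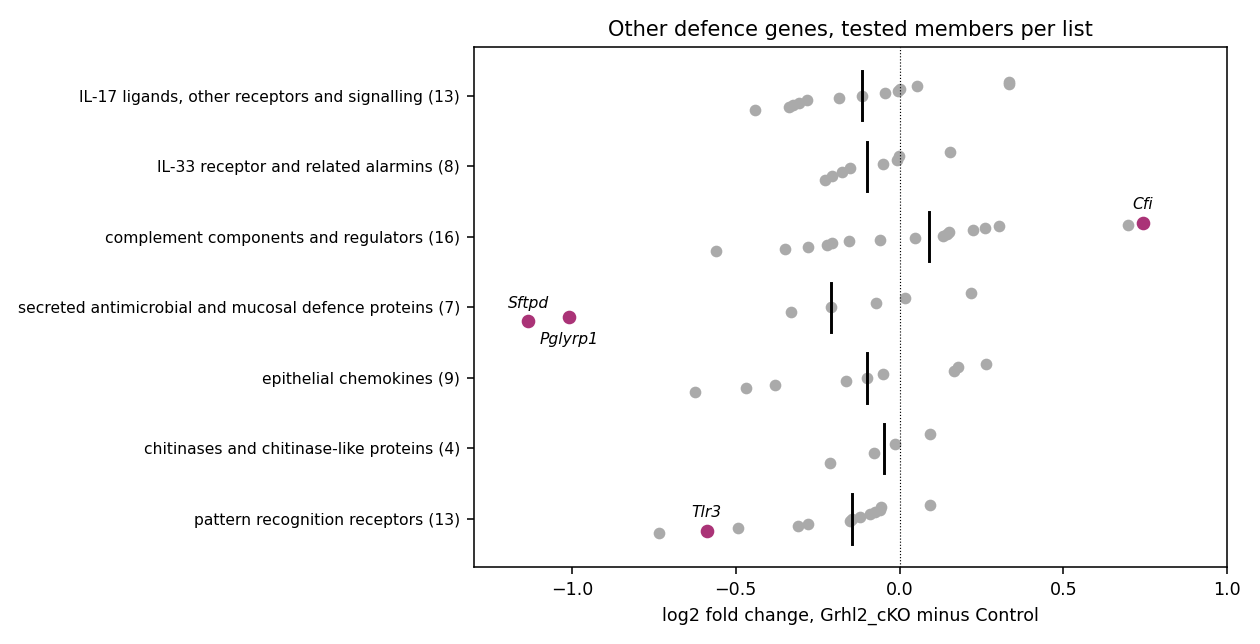
Log2 fold change (Grhl2_cKO minus Control) of the tested genes in 7 lists of other defence genes, 1 point a gene, with called genes in colour and named; the vertical line is the median of the list and the number in brackets the genes tested. The 4 called genes are Cfi, higher, and Sftpd, Pglyrp1 and Tlr3, lower.

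Markers of epithelial cell types that express some of the 10 genes were measured beside them. Airway secretory markers (10 genes, Reg3g included) summed to 560 to 680 CPM in controls and 249 to 393 CPM in Grhl2_cKO, with 4 of 8 tested members lower and none higher. Aldh1a7 was the largest part of this sum, at 315.8 to 344.7 CPM in controls and 147.4 to 191.3 CPM in Grhl2_cKO. Scgb1a1 overlapped between the groups, at 3.44, 2.68 and 1.94 CPM against 4.09, 0.83 and 1.24 CPM (edgeR adjusted p = 0.896). Scgb3a2, Cyp2f2 and Muc5b were lower without overlap but not called. Ciliated markers (10 genes) summed to 156 to 208 and 78.9 to 114 CPM, with 8 of 10 tested members lower and none higher. Alveolar type 2 markers (14 genes, Sftpd included) summed to 20200 to 22100 and 19400 to 23400 CPM, with 3 of 14 tested members lower and none higher. Sftpc made up most of each of these sums, at 12594 to 15449 CPM over all libraries. Groups also did not overlap, without a call, for Sftpa1 and Muc1, which were lower, and Sftpb and Napsa, which were higher. Over all tested genes 2.39% were called lower and 1.23% higher. In each of these 3 lists none was at 0 in every library. Il17re, Il33, Lyz1, Chil1 (not called) and Reg3g (not tested) were lower in the 3 knockout libraries, as were the secretory and ciliated sums. This would hold for any gene that is lower in each knockout library, and Reg3g is itself in the secretory list. The part of secretory and ciliated cells in the falls was not tested. Grhl2_cKO replicate 1 had the highest secretory and ciliated sums of the knockout libraries (393 and 114 CPM).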

How the data were processed

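Messenger RNA of 6 libraries was measured, 3 per genotype. Raw counts by Entrez gene, with gene lengths in bases, are what the authors deposited. Per the submitters' processing notes, bcl2fastq 2.17.1.14, featureCounts, edgeR 3.16.5 and limma 3.30.12 were used on mm10. No aligner, strand setting or treatment of multi-mapping reads is given in those notes. Symbols, coordinates and promoters came from RefSeq (GRCm38.p6; 92.99% of identifiers matched), transcripts and overlaps from GENCODE M21. Of 224 list symbols 1 was not matched.

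The main test was edgeR 4.0.16 (R 4.3.3) on the deposited counts: TMM, filterByExpr (minimum count 10, minimum total 15; 14842 genes tested, 12337 not), quasi-likelihood fit without covariates, Benjamini-Hochberg adjustment over all tested genes, threshold 0.05, prior count 0.125. SE was taken as |log2 fold change|/sqrt(F). CPM use TMM-scaled sizes of the tested genes; CPM per kb divide by the deposited length. A count of 3 is 0.178 to 0.224 CPM. Patterns were compared on log2(CPM + 0.5). The test was checked on simulated data. Replicates of a group differed beyond counting noise (chi-square per degree of freedom 7.72 to 12.9). Named genes are the 10; up to 4 called genes of each list, or the smallest p; others were named after values were seen. Members and lists were chosen with earlier results of these data known. Alternatives were 3 other scalings, 2 other filters, DESeq2 1.42.0, limma-voom (limma 3.58.1), quasi-likelihood in its robust and its legacy form, a term for sex, leaving out each library, and Lyz1 and Lyz2 as 1 gene.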

Additional observations from a re-analysis of the deposited data

How the results depend on the processing

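Il17re, Il33 and Hc kept their direction and their call in 16 of 16 alternatives each, and Lyz1 in 14 of 17, losing it without control replicate 3, without Grhl2_cKO replicate 5 and when added to Lyz2. Between 2 and 4 of the 10 genes were called lower and 1 higher in each setting. The number of all called genes was 249 to 504 when 1 library was left out, against 537 with all, and 452 to 669 under the other alternatives; fewer samples were fitted in the first case. Lyz2 was not called in any setting and changed sign with limma-voom (-0.043), when added to Lyz1 (-0.77) and when 1 library was left out (-0.55 to 0.38). Il17rc was not called in any setting, with log2 fold changes of -0.029 to 0.083 when 1 library was left out. Lyz1 and Lyz2 as 1 gene had log2 fold changes of -1.48 to -0.49 when 1 library was left out, called without Grhl2_cKO replicate 1 alone. The cause of these changes was not tested. Scalings moved the median of all genes by less than 0.02 on the log2 scale. No paired analysis was possible because the labels used here name no litter or pair. Depth limits Chil1 and Reg3g, with means of 9.17 and 3.83 counts per library.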
